A study of Mus musculus with 169 samples.

Results

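The TREM2 axis and its neighbours among the damage-response genes of microglia were examined as 9 genes chosen by name: Trem2, Tyrobp, Syk, Axl, Mertk, Cst7, Cd52, Csf1 and Igf1. Every array probe whose accession belongs to these genes was used, which gave 14 of 55681 probes: 3 for Csf1, 4 for Igf1 and 1 for each of the others. The array names 20145 genes in all. All 14 probes passed the filter on dim probes (well above background on at least 3 arrays), and 11 of them were well above background on all 15 arrays.

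Microglia were sorted from Grn-/- mice (KO), which lack progranulin, and from Grn+/+ mice (WT), all on a C57B/6J background. At 16 months there were 4 KO and 4 WT arrays, and at 4 months 3 KO and 4 WT arrays. The KO allele removes Grn from the whole animal and not from microglia alone. Per the labels, cells came from Percoll gradients and were sorted on CD11b, CD45 and Ly6G, and neither the sex of the mice nor the number of mice behind an array is given. WT arrays 1 and 2 at 16 months differed by less than repeat spots of a probe within those arrays (spread of the log2 difference 0.153, against 0.172 and 0.183), as did arrays 3 and 4 (0.117, against 0.180 and 0.192), so each of these sets was averaged and counted as 1 replicate. That left 4 KO and 2 WT replicates at 16 months and 3 KO and 4 WT replicates at 4 months. Nothing says that replicates are separate animals, so p-values measure only the spread between these samples. They come from 1 fit that pools the spread of all 4 groups, so p-values and intervals at either age also carry the spread at the other. After the age, the sample titles give the same number for all 4-month arrays and another for all 16-month arrays. It is read here as a slide number, so slide and age cannot be told apart. In the sample titles, the number before the replicate number is 1 for all WT arrays and 2 for all KO arrays. Its meaning is not given, and whatever it stands for cannot be told apart from genotype.

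Trem2 is a lipid and lipoprotein receptor of myeloid cells without a signalling motif of its own. It pairs with the adaptor Tyrobp (DAP12), whose phosphorylated ITAM, a tyrosine motif, recruits the kinase Syk. In ageing or damaged brain, microglia can take on the disease-associated state, in which resting-state genes are lowered and genes such as Apoe, Axl, Cst7, Csf1 and Igf1 are raised. Trem2 is needed for the full state, and not for every one of these changes. Axl and Mertk are receptor tyrosine kinases of the TAM family that bind dying cells through the bridging proteins Gas6 and protein S.

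In RefSeq's annotation of GRCm38.p6 Trem2 lies at chr17:48346401-48352276, Tyrobp at chr7:30413782-30417582 and Syk at chr13:52582610-52648792. Axl lies at chr7:25756500-25788924 and Mertk at chr2:128698915-128803162. Cst7 lies at chr2:150570415-150578944, Cd52 at chr4:134093538-134095073, Csf1 at chr3:107741048-107760469 and Igf1 at chr10:87858265-87937047. RefSeq promoters (the same build, 250 bases before to 50 after a start site) were at hand for 7 of the 9 genes, with 8 start sites because Syk has a pair. Those of Trem2, the second Syk start and Mertk are shown because these 3 genes fell at 16 months. That of Igf1 is shown because all its probes lay higher in KO. The Syk start shown is the one that holds the motif marked below, and the first start, without it, is not printed. Cd52 also fell, but no promoter of it was at hand. Capitals mark GAGGAA, the core bound by the myeloid factor PU.1, on either strand.
Trem2, chr17:48346151-48346450, plus strand: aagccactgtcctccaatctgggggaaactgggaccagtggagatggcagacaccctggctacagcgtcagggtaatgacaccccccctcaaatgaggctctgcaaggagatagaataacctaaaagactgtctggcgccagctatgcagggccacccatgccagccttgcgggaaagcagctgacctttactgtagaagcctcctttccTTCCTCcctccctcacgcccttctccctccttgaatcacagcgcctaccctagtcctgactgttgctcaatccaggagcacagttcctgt
Syk, second start, chr13:52596632-52596931, plus strand: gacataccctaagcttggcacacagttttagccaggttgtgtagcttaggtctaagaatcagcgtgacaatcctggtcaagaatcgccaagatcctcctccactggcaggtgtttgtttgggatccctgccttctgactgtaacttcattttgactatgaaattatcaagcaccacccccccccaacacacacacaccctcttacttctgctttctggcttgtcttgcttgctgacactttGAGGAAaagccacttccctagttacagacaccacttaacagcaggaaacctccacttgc
Mertk, chr2:128698665-128698964, plus strand: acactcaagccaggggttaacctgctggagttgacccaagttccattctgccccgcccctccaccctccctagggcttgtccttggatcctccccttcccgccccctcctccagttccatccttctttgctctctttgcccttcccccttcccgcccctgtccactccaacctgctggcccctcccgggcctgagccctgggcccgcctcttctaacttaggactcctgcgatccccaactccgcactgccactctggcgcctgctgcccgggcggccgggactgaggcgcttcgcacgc
Igf1, chr10:87860861-87861160, plus strand: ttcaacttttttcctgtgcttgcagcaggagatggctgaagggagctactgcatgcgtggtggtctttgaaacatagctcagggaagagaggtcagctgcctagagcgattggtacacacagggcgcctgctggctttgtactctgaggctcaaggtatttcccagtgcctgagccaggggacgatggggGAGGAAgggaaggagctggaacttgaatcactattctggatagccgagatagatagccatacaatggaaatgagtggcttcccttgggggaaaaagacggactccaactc
The core was found once each for Trem2, the second Syk start, Igf1 and Axl, and not in the windows of Mertk, Cst7, Csf1 or the first Syk start. It occurs in 28.3% of the 32851 promoters of the same length. TGANTCA, a loosened form of the AP-1 motif with any base at its centre, was found in the windows of Trem2, Cst7 and Igf1. It occurs in 7.81% of all promoters. The match was TGAATCA for Trem2 and Igf1 and TGATTCA for Cst7, so none had the C or G of the AP-1 consensus at its centre. The E-box CACGTG was found in none of the 8 windows, and in 7.15% of all promoters. Neither of these overlapped a GAGGAA match. These matches describe letters and not binding.

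Levels are log2 of a probe's signal over the 75th percentile of all spots on its array, so a level of 0 equals that percentile and a difference of 1 is a doubling. Signals below a floor of -4.94 were set to the floor. The 75th percentile was 507 to 1037 intensity units on KO and 1010 to 1511 on WT arrays at 16 months, and 1072 to 1752 on KO and 1306 to 1649 on WT arrays at 4 months. The share of probes well above background was 54.2 to 62.7% on KO and 64.6 to 69.8% on WT arrays at 16 months, and 66.4 to 73.0% on KO and 70.3 to 76.5% on WT arrays at 4 months. On the first principal component, with 62.0% of the variance, 16-month KO replicates scored 213 to 261 and all other replicates -156 to -10.3. Grn itself was not well above background on any KO array at 16 months, where all values were at the floor, which put it at least 1009.7-fold below WT, and it was 522-fold below WT at 4 months (limma adjusted p = 3.75e-07 and 2.88e-07).

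The sorted cells carried the defining genes of microglia: all 14 listed homeostatic genes, among them P2ry12, Tmem119 and Cx3cr1, were well above background on every array, except Slc2a5 on 1 KO array at 16 months. At 16 months their median log2 difference between KO and WT was -3.20, against 0.12 for all features. Their summed level was 8.06 to 9.36 in KO against 10.36 to 11.16 in WT replicates. In KO 13 of the 14 fell, where 15% of all features did. Without WT replicate 3 and 4 this count was 5, and without the 4-month arrays it was 3. Choroid plexus genes went the other way: 4 of 8 rose at 16 months (Cldn2, Kcnj13, Folr1 and Kl), where 19.3% of all features did. Their summed level was 9.84 to 10.68 in KO against 8.42 to 9.19 in WT at 16 months. At 4 months it was 7.51 to 8.17 in KO against 3.44 to 6.98 in WT. With quantile normalization, with array weights or without WT replicate 3 and 4, 1 of the 8 rose at 16 months, and without KO replicate 1 it was 2. Border macrophage genes summed to 4.54 to 6.41 in KO and 5.52 to 6.46 in WT at 16 months, and to 2.41 to 3.17 in KO and 1.33 to 1.85 in WT at 4 months. In a sorted bulk sample, fewer cells of a type and less RNA per cell cannot be told apart. Sums also kept the groups apart at 16 months for astrocyte genes (5.56 to 6.71 in KO against 4.97 to 5.39 in WT), T and NK cell genes (-1.04 to -0.11 in KO against -1.72 to -1.11 in WT), oligodendrocyte genes (4.93 to 7.14 in KO against 7.57 to 7.66 in WT) and B cell genes (-2.57 to -1.06 in KO against 0.55 to 1.02 in WT). At 4 months they did so for astrocyte genes (5.31 to 5.47 in KO against 4.85 to 5.27 in WT) and B cell genes (2.29 to 3.09 in KO against 3.19 to 3.38 in WT). Neutrophil genes summed to 7.65 to 7.97 in KO and 5.07 to 6.89 in WT at 4 months. At 16 months they stood at 7.85, -2.01, 7.64 and -2.36 in KO replicates 1 to 4, against 8.47 and 6.33 in WT, so KO replicates 2 and 4 were far below all others. Sums of monocyte, neuron and endothelial genes overlapped between KO and WT at both ages. The part of these markers in the results on the 9 genes was not tested.

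**Figure D1:**
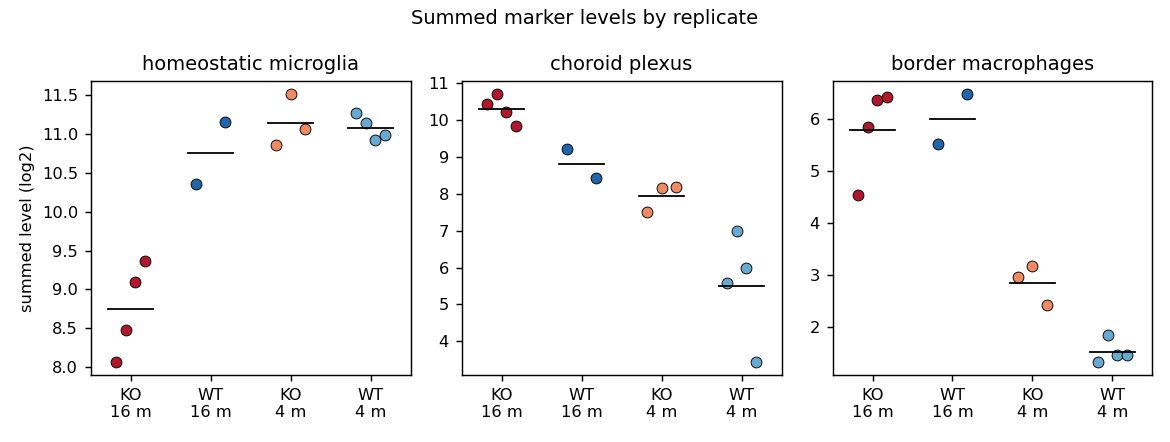
Summed level (log2, vertical axis) of the homeostatic microglia, choroid plexus and border macrophage genes in each replicate; dots are replicates and lines are group means. Homeostatic sums of the KO replicates at 16 months lie below all others, and choroid plexus sums are above WT at both ages.

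At 16 months the receptor Trem2, the kinase Syk, the uptake receptor Mertk and the surface glycopeptide Cd52 fell in KO microglia. Trem2, Mertk and Cd52 fell by factors of 4.54 to 5.76. Syk, not well above background in 1 of 4 KO replicates, was at least 33.1-fold lower with that replicate at the floor. This bound allows for the floor and not for the spread between replicates. None of the 9 genes rose. The other 5 did not pass limma's test at an adjusted p of 0.05 over all 31927 features. The count of 4 lower genes stands against 15% of all features that fell, and 19.3% rose (34.3% in either direction). In the same 4 genes all KO replicates lay below all WT replicates, as they did for 17.9% of features, and no gene had all KO replicates above, as 24.2% of features did. The median difference of the 9 genes was -1.20, against 0.12 for all features.

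**Figure D2:**
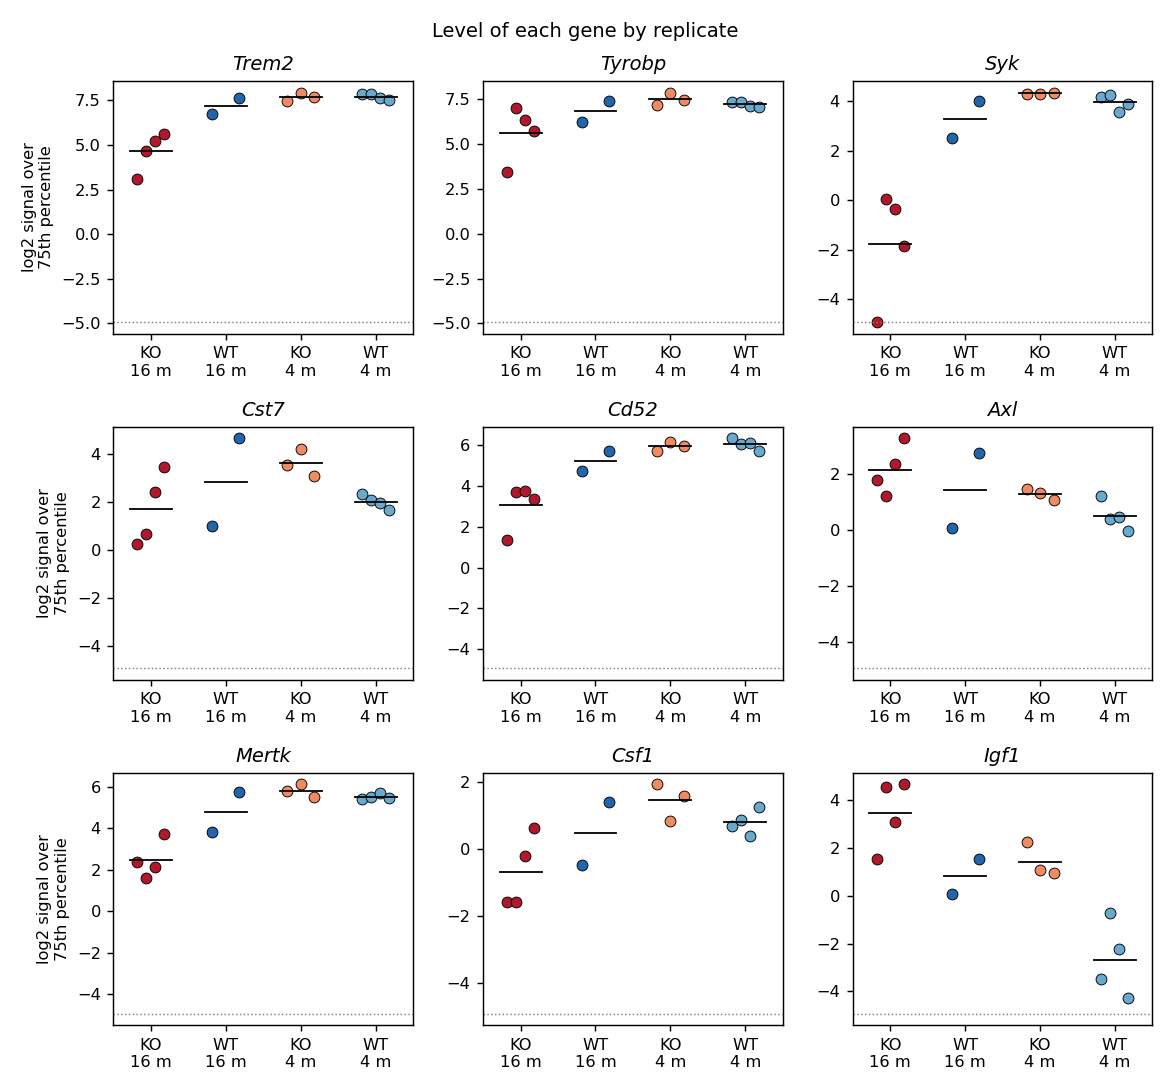
Level (log2 signal over the array's 75th percentile, vertical axis) of the brightest probe of each of the 9 genes in every replicate; dots are replicates, lines are group means and the dotted line is the floor of -4.94. At 16 months the KO dots of Trem2, Syk, Mertk and Cd52 lie below both WT dots, and at 4 months those of Igf1, Cst7 and Syk lie above all WT dots of that age.

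Trem2 (probe A_55_P1962937) stood at 3.07, 4.65, 5.19 and 5.60 in the KO replicates and at 6.71 and 7.60 in the WT replicates at 16 months. All KO values were below both WT values, and the difference was -2.53 (SE 0.57, adjusted p = 0.00668), or 5.76-fold lower. At 4 months the levels were 7.47, 7.93 and 7.68 in KO and 7.85, 7.83, 7.62 and 7.54 in WT. The groups overlapped there, with a difference of -0.01 and a 95% confidence interval of -1.12 to 1.09. Over the 4 groups the order ran from WT and KO at 4 months through WT at 16 months to KO at 16 months, and only the KO 16-month group lay clear of its neighbour.

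Tyrobp (A_51_P261517), the adaptor that carries the signal of Trem2, stood at 3.42, 7.03, 6.33 and 5.74 in KO and at 6.25 and 7.40 in WT at 16 months. The groups overlapped because 2 KO replicates reached the WT range, and KO replicate 1 was the lowest by a wide margin. The difference of -1.20 (SE 0.78, adjusted p = 0.266) had an interval of -2.93 to 0.53 and passed only with quantile normalization (-1.82, adjusted p = 0.049997). At 4 months the levels were 7.18, 7.88 and 7.47 in KO and 7.34, 7.35, 7.10 and 7.07 in WT, with a difference of 0.29 (interval -1.23 to 1.82).

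Syk (A_55_P1962946), the tyrosine kinase recruited by Tyrobp, had the most negative KO minus WT difference of the 9 genes at 16 months. It was at the floor of -4.94 in KO replicate 1, where it was not well above background, and at 0.04, -0.35 and -1.83 in the other KO replicates, against 2.53 and 4.03 in WT. All KO values lay below both WT values. With replicate 1 at the floor the fitted difference was -5.05 (SE 1.10, interval -7.49 to -2.61, adjusted p = 0.0058), or at least 33.1-fold lower. Over the alternative fits the difference ran from -5.80 to -3.99. At 4 months Syk stood at 4.31, 4.30 and 4.36 in KO and at 4.17, 4.24, 3.57 and 3.91 in WT. These groups did not overlap either, with KO the higher by 0.35 (adjusted p = 1).

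Of the TAM receptors, Mertk fell at 16 months and Axl did not pass the test. Mertk (A_51_P366138), which signals uptake of apoptotic cells, stood at 2.37, 1.60, 2.14 and 3.74 in KO and at 3.84 and 5.73 in WT at 16 months, a difference of -2.32 (SE 0.58, adjusted p = 0.0114). The highest KO value came close to the lower WT value without reaching it. Axl (A_55_P2051414), the TAM receptor raised in disease-associated microglia, stood at 1.76, 1.19, 2.36 and 3.26 in KO and at 0.05 and 2.75 in WT. A WT replicate lay below all KO values and the other inside their range; the difference was 0.74 (SE 0.71, adjusted p = 0.465) and its sign depended on them: it was -0.61 without WT replicate 1 and 2 and 2.09 (adjusted p = 0.0455) without WT replicate 3 and 4. Within an array the Axl level minus the Mertk level, which no scaling of the array can move, was -0.62 to 0.22 in KO and -3.79 to -2.98 in WT replicates at 16 months. These ranges did not overlap, no test was made of them, and the share of other gene pairs without overlap was not computed. The same quantity was -4.80 to -4.36 in KO and -5.47 to -4.24 in WT at 4 months, where the ranges overlapped.

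At 4 months Mertk was at 5.79, 6.13 and 5.51 in KO and at 5.42, 5.50, 5.69 and 5.44 in WT, with a difference of 0.30 (interval -0.84 to 1.43). Axl was at 1.43, 1.32 and 1.04 in KO and at 1.19, 0.39, 0.44 and -0.04 in WT, with a difference of 0.77 (interval -0.61 to 2.16). In both genes the lowest KO value lay inside the WT range.

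Cd52 (A_51_P151126), a lipid-anchored glycopeptide of leukocyte surfaces, stood at 1.35, 3.73, 3.77 and 3.39 in KO and at 4.75 and 5.73 in WT at 16 months. All KO values were below WT and replicate 1 was far below the other KO replicates. The difference was -2.18 (SE 0.60, adjusted p = 0.0173), and it ended with array weights (-2.06, adjusted p = 0.0639). At 4 months Cd52 was at 5.74, 6.18 and 5.97 in KO and at 6.35, 6.08, 6.12 and 5.71 in WT, with a difference of -0.10 (interval -1.26 to 1.07).

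Cst7 (A_51_P137419), which encodes the lysosomal protease inhibitor cystatin F, stood at 0.22, 0.64, 2.42 and 3.46 in KO and at 0.96 and 4.63 in WT at 16 months. The WT replicates were far apart and the groups overlapped; the difference was -1.12 (SE 1.02, adjusted p = 0.444), and 0.72 without WT replicate 3 and 4. At 4 months Cst7 stood at 3.54, 4.18 and 3.08 in KO and at 2.30, 2.06, 1.95 and 1.67 in WT. All KO values were above all WT values, but the difference of 1.61 (SE 0.90, interval -0.39 to 3.61, adjusted p = 0.94) did not pass the test. The standard deviation within groups was 0.55 in KO and 0.26 in WT at 4 months, and 1.52 and 2.60 at 16 months, and the fit pools these.

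Csf1 encodes the growth factor on whose receptor, Csf1r, microglia depend. Its brightest probe (A_51_P195506) stood at -1.59, -1.57, -0.20 and 0.64 in KO and at -0.47 and 1.41 in WT at 16 months, and at 1.95, 0.83 and 1.61 in KO and 0.68, 0.88, 0.38 and 1.25 in WT at 4 months. The groups overlapped at both ages. The 3 probes differed by -1.15 to -0.87 at 16 months (lowest adjusted p = 0.245 over all probes) and by 0.60 to 0.75 at 4 months (adjusted p = 1 for each).

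Igf1 encodes a growth factor that microglia and other cells secrete, and it was the gene with the largest positive KO minus WT difference of the 9 at both ages, without passing the test on its brightest probe. That probe (A_55_P2031631) stood at 1.53, 4.56, 3.10 and 4.67 in KO and at 0.09 and 1.55 in WT at 16 months, where KO replicate 1 fell just inside the WT range. The difference was 2.64 (SE 1.07, adjusted p = 0.0801). At 4 months it stood at 2.24, 1.09 and 0.96 in KO and at -3.46, -0.73, -2.24 and -4.29 in WT. All KO values were above all WT values, and the difference was 4.11 (SE 0.94, interval 2.02 to 6.20, adjusted p = 0.317). The summed choroid plexus level given above was also higher in KO at both ages and its part in the Igf1 values was not tested.

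The 4 Igf1 probes all lay higher in KO at both ages, by 1.47 to 2.72 at 16 months and by 0.98 to 4.29 at 4 months. At 16 months probe A_55_P2031636 passed (2.39, SE 0.63, adjusted p = 0.0169 over all probes), with KO at -0.52, 1.50, -0.17 and -0.74 and WT at -1.48 and -3.27. The order of its WT replicates was opposite to that of the other 3 probes. Its call ended without the 4-month arrays (adjusted p = 0.156) and without WT replicate 3 and 4. With the 4 lower probes of Trem2, Syk, Mertk and Cd52 this made 5 of 14 probes past the test, where 30.2% of all probes passed. At 4 months 0 of 14 probes passed (0.0219% of all probes did), and 7 of 14 had every KO replicate above every WT replicate, as 4.39% of all probes did; 4 of these are Igf1 probes, which share a target, and the others belong to Csf1, Syk and Cst7.

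**Figure D3:**
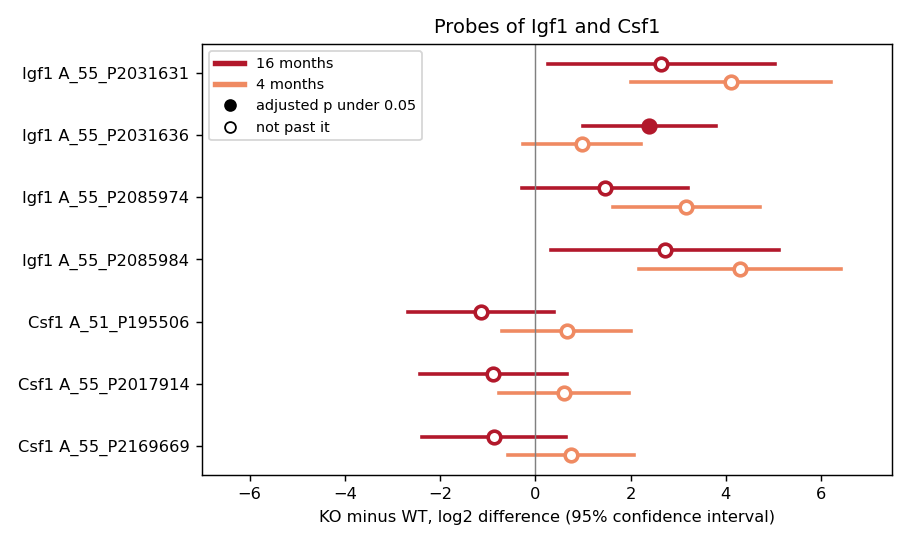
KO minus WT difference (log2, horizontal axis) with its 95% confidence interval for each probe of Igf1 and Csf1 at 16 and 4 months; filled points passed an adjusted p of 0.05. All Igf1 points lie right of 0 and only probe A_55_P2031636 at 16 months is filled; the Csf1 points lie left of 0 at 16 months and right of 0 at 4 months.

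At 4 months none of the 9 genes passed limma's test, and at this age 8 of 31927 features did (0.0251%), with 1920 features at an unadjusted p under 0.05. Igf1 was the only one of the 9 at an unadjusted p under 0.05. Syk, Cst7 and Igf1 had all KO replicates above all WT replicates, as 4.98% of features did, and none had all below, as 6.63% did. The median of the 9 differences was 0.35, against 0.00 for all features.

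The difference between the ages in the KO minus WT change was tested as an interaction. It passed for Syk (-5.40, SE 1.47, adjusted p = 0.0367) and Mertk (-2.61, SE 0.77, adjusted p = 0.0496), so 2 of the 9 genes passed where 13.3% of features did, 6.45% in the lower direction. Trem2 (-2.51, adjusted p = 0.0523) and Cd52 (-2.09, adjusted p = 0.109) did not pass. For Axl the interaction was -0.03 (interval -2.12 to 2.06) and for Igf1 -1.47 (interval -4.63 to 1.69).

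**Figure D4:**
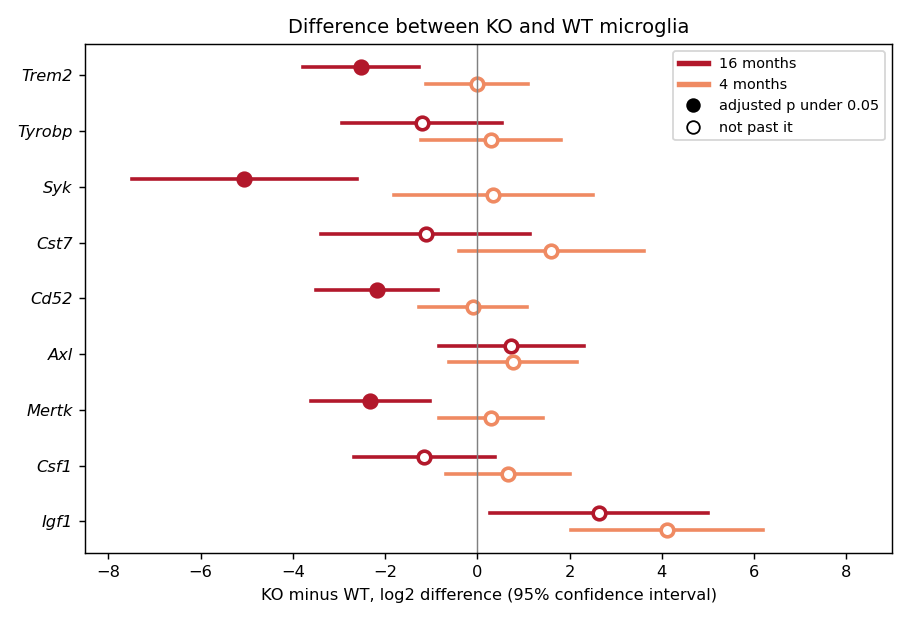
KO minus WT difference (log2, horizontal axis) with its 95% confidence interval for the brightest probe of each of the 9 genes at 16 and 4 months; filled points passed an adjusted p of 0.05. Trem2, Syk, Cd52 and Mertk are filled at 16 months, none is filled at 4 months, and both Igf1 points lie right of 0.

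The 4 calls at 16 months held when KO replicate 2 or KO replicate 4 was left out. All 4 ended when the 4-month arrays were left out of the fit (adjusted p 0.109 to 0.155 at the same differences) and without WT replicate 3 and 4 (Trem2 -2.08, Syk -4.30, Mertk -1.37 and Cd52 -1.69, adjusted p 0.0554 to 0.139). The interaction calls of Syk and Mertk both ended with a replicate block and in each fit that left out a 4-month replicate.

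Differences between genes within an array, which the array's scaling cannot move where neither gene is at the floor, were compared between the 16-month groups without a test. Syk was at the floor in KO replicate 1 at 16 months, so the low ends of its KO ranges at that age, here and in the next paragraph, depend on it. Trem2 minus Tyrobp was -2.38 to -0.13 in KO and 0.20 to 0.45 in WT replicates. Syk minus Tyrobp was -8.36 to -6.68 in KO and -3.72 to -3.37 in WT. Neither pair of ranges overlapped. Trem2 and Syk had passed the test at 16 months and Tyrobp had not, so these pairs are not separate evidence. The share of other gene pairs without overlap was not computed. Of single features, 17.9% had all KO replicates below all WT replicates at 16 months and 24.2% had all above. Cst7 minus Tyrobp overlapped, at -6.39 to -2.28 in KO and -5.29 to -2.77 in WT. Igf1 minus Csf1 was 3.11 to 6.13 in KO and 0.14 to 0.56 in WT. Ranges at 4 months were also apart for Trem2 minus Tyrobp (0.05 to 0.29 in KO and 0.47 to 0.52 in WT). The same held for Cst7 minus Tyrobp (-4.38 to -3.64 in KO and -5.40 to -5.04 in WT). It held too for Igf1 minus Csf1 (-0.65 to 0.29 in KO and -5.54 to -1.61 in WT). Syk minus Tyrobp overlapped at 4 months, at -3.58 to -2.87 in KO and -3.54 to -3.11 in WT.

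Against the mean of the homeostatic genes on the same array, 2 of the 4 genes that fell overlapped between the 16-month groups. Syk was at -6.88 to -2.80 in KO and -3.53 to -3.06 in WT, and Mertk at -2.11 to 0.44 in KO and -2.22 to -1.36 in WT. The other 2 were higher in KO relative to these genes: Trem2 was at 0.94 to 1.81 in KO and 0.52 to 0.64 in WT, and Cd52 at -1.20 to 0.89 in KO and -1.35 to -1.31 in WT. The 5 genes that did not pass the test also lay higher in KO on this measure, with no overlap. The homeostatic genes themselves had a median KO minus WT difference of -3.20 at 16 months, against 0.12 for all features. A gene that did not change would therefore also lie higher in KO on this measure. The share of all features that did so was not computed.

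In the wider pathway, of 29 genes listed for ITAM signalling, 13 fell in KO microglia and 1 rose at 16 months, with a median of -1.94; of all features 15% fell and 19.3% rose, with a median of 0.12. The lipid phosphatase Inpp5d (SHIP1) fell by 4.11 (SE 0.41, adjusted p = 0.00013), the phospholipase Plcg2 by 3.31 and the GTPase Rac2 by 1.84. The scaffold Lcp2 (SLP-76), well above background on 2 of 4 KO arrays, was at least 40.9-fold lower (adjusted p = 0.000163). Vav3, an exchange factor named after its value was seen, was at least 9.25-fold higher (adjusted p = 0.00339), with 1 of 4 WT arrays well above background and both WT replicates at the floor. Of the 10 listed receptors related to Trem2 or paired with Tyrobp, 4 fell and 0 rose, against the same 15% and 19.3% of features. Clec5a fell by 6.46 and Siglech by 1.71. Treml2, well above background on 2 of 4 KO arrays, was at least 14.4-fold lower, and Treml1, not well above background on any KO array, at least 27.98-fold lower. At 4 months 0 genes of these lists passed. Without the 4-month arrays in the fit, 5 of the 29 ITAM genes fell at 16 months.

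Of the genes for Trem2 ligands and shedding, 6 of 8 were tested, 2 rose at 16 months and 0 fell, against 19.3% and 15% of all features. Apoe, a lipoprotein ligand of Trem2, differed by 1.58 (SE 0.25, adjusted p = 0.00104) at 16 months and by 1.82 (SE 0.22, adjusted p = 0.0363) at 4 months, and was the only gene of the pathway lists that passed at 4 months. Hspd1, a heat shock protein, rose by 1.00 at 16 months (adjusted p = 0.041), and with quantile normalization it differed by 0.24 and did not pass. The sheddases Adam10 and Adam17 differed by -0.63 and -1.07 without passing.

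Of 18 genes of the TAM axis and apoptotic cell uptake, 3 rose and 6 fell at 16 months, where 19.3% of all features rose and 15% fell, so the share that rose was no larger than among all features. Elmo1, an engulfment adaptor well above background on 2 of 4 KO arrays, was at least 28.8-fold lower (adjusted p = 0.000137). The receptor Adgrb1 (BAI1) fell by 4.49 and the integrins Itgb3 and Itgb5 by 2.78 and 2.08. Genes named after their values were seen were Pros1, the TAM ligand protein S, which fell by 2.59 (adjusted p = 0.0485), the scavenger receptor Stab1 (-1.28), and the 3 that rose, Gulp1 (3.18), Mfge8 (1.68) and Dock1 (0.76). Gas6, the other TAM ligand, differed by -0.15 (adjusted p = 0.849). Without WT replicate 3 and 4, 0 genes of this list rose, and without the 4-month arrays 3 fell and 0 rose.

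Around Csf1 and Igf1, 16 of 17 genes were tested, 1 rose and 6 fell at 16 months, against 19.3% and 15% of all features. The receptor Csf1r fell by 2.77 (SE 0.55, adjusted p = 0.00364), Csf3r by 1.62, Csf2ra by 2.13 and the binding protein Igfbp4 by 4.61. The list also holds Csf2ra, Csf2rb and Csf3r, receptor genes of other colony-stimulating factors, so its counts are not of Csf1 and Igf1 signalling alone. Named after their values were seen, Csf2rb fell by 2.67, the receptor Igf1r by 1.56 (adjusted p = 0.0122), and the scavenging receptor Igf2r rose by 1.86 (adjusted p = 0.0437). The count of 6 lower genes was 3 without WT replicate 3 and 4 and 1 without the 4-month arrays.

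Among 11 cystatins and the proteases they inhibit, 2 rose (Cstb by 2.17 and Ctsl by 0.84) and 1 fell (Ctsh by 1.99) at 16 months, shares no larger than the 19.3% and 15% of all features. The count that rose ran from 0, with the replicate block, to 4, with all 15 arrays as replicates. Of 24 other disease-associated microglia genes, 22 were tested, 6 rose and 4 fell, not far from the 19.3% and 15% of all features. The glycoprotein gene Gpnmb, well above background on 1 of 4 WT arrays, was at least 200.02-fold higher (adjusted p = 0.000609). Fabp5 rose by 3.66, Apoe and Ctsl as given, and, named after their values were seen, Lgals3 by 1.94 and Cd63 by 1.17. Itgax, which marks disease-associated microglia, fell by 2.81 (SE 0.46, adjusted p = 0.00136), and Ccl6 and Timp2, named after their values were seen, fell by 2.36 and 1.20. Ch25h, named likewise and well above background on 3 of 4 KO arrays, was at least 14.3-fold lower. The count of 4 lower genes was 2 without WT replicate 3 and 4, and without the 4-month arrays 1 fell and 3 rose. The median of this list was 0.35, against 0.12 for all features.

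**Figure D5:**
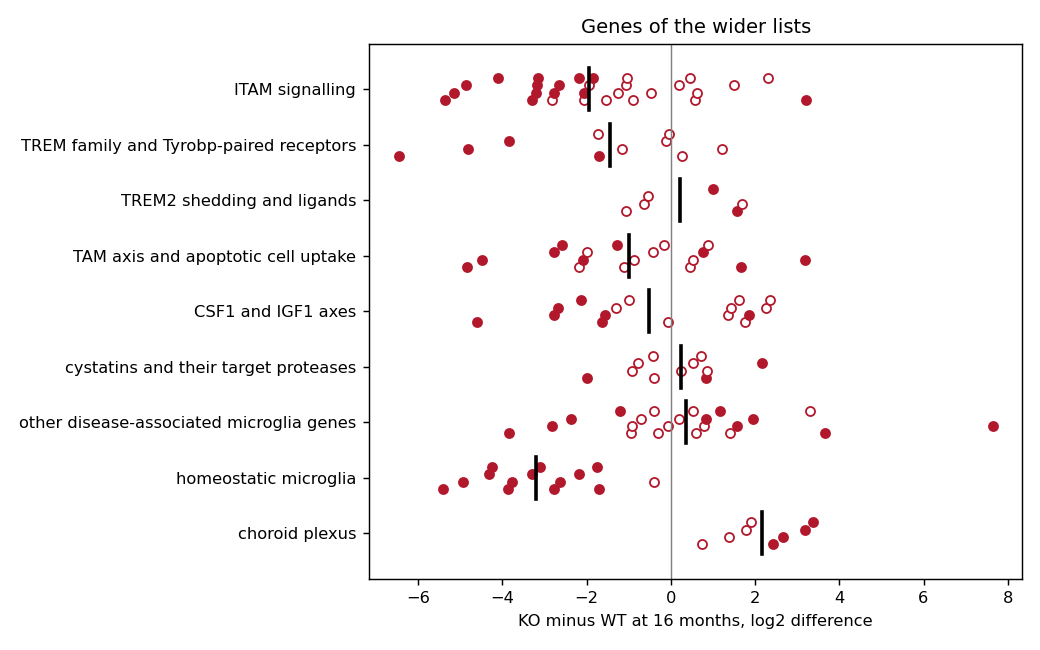
KO minus WT difference at 16 months (log2, horizontal axis) of every tested gene in the wider lists; filled dots passed an adjusted p of 0.05, and vertical bars are list medians. ITAM signalling has its median at -1.94 and homeostatic microglia at -3.20, and the list of other disease-associated genes has filled dots on both sides of 0.

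Genes with levels most like those of the 9 were taken as the features with the highest Pearson correlation over the 13 replicates, which share slides and groups, so the values are descriptions. Trem2 was closest to Evl (r = 0.996, and 0.990 after group means were subtracted) and C1qc (0.995 and 0.978). Cd52 was closest to Fcer1g (0.994 and 0.977) and Slc2a5 (0.991 and 0.954), and Syk to Ikzf1 (0.990 and 0.944) and Lst1 (0.988 and 0.928). Mertk was closest to Mycbp2 (0.989 and 0.927) and Csf2rb (0.987 and 0.917). Axl was closest to Lilr4b (0.905 and 0.834) and H2-K2 (0.881 and 0.817), and Cst7 to Zfp326 (0.900 and 0.891) and Mpeg1 (0.881 and 0.902). Tyrobp was closest to Phrf1 (0.974 and 0.954) and Cacna1s (0.965 and 0.954), Csf1 to Slamf1 (0.966 and 0.950) and Prkcd (0.951 and 0.912), and Igf1 to Anxa2 (0.972 and 0.848) and Gramd1b (0.922 and 0.676).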

How the data were processed

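Microglia RNA was hybridised to single-color Agilent arrays, 15 in all. The deposited values are background-subtracted spot intensities, per the file headers, which name design 028005, grid build mm9 (used for no coordinate here) and version 10.7.3.1 of Feature Extraction. R 2.15.3 is in the submitters' processing notes. As tested on the values, the deposited processed intensities of the 4-month arrays also carried a correction that varied from spot to spot, and those of the 16-month arrays did not. No spot was saturated. The files hold no mean spot signal, so an alternative background correction used medians.

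Repeat spots were averaged without outlier spots, divided by the array's 75th percentile, floored at 0.0325 and put on the log2 scale. Probes (45615) well above background on at least 3 arrays were tested. For each gene the brightest probe was kept, which left 31927 features, 17798 with a symbol. Symbols came from RefSeq accessions (26582 probes). One linear model over 4 groups and 13 replicates was fitted with limma 3.58.1 (the package data.table at version 1.17.8, statmod 1.5.0, R 4.3.3), two-sided, and p-values were adjusted by Benjamini and Hochberg's method, with calls at 0.05. Every adjusted p is from it. The fit was tested on simulated data in which each gene had the same spread in all 4 groups. Spreads differed between the groups here, as given for Cst7, so that test does not bear on unequal spreads. Figures used matplotlib 3.10.9.

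The genes, lists and tests were chosen with earlier results of these data known. Named from each list were up to 4 genes with the smallest adjusted p at 16 months, and others are marked where they appear. KO and WT arrays share replicate numbers, whose meaning the labels leave unsaid. Deviations from group means of same-numbered samples correlated at -0.043 to -0.035 at 4 months, and at 0.103 to 0.133 at 16 months, where the values rest on a single difference between 2 WT replicates, so numbers were not taken as pairs. Array number limits the precision. Brain bead arrays of the series are not used here, because their probes could not be named from the tables used here, and the planned tests on them were not run. Alternatives covered background correction, scaling, filters, floor, probe choice, samples in the fit, a replicate block, array weights and left-out replicates.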

Additional observations from a re-analysis of the deposited data

Results flagged for a closer look

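Among 29 groups of 4 replicates checked, 4 held a replicate far from the others, and chance flags about 1 in 20 groups. Csf1 probe A_55_P2017914 stood at -2.16 in WT replicate 3 at 4 months, with the other 3 at -0.71 to -0.66, and Csf1 probe A_55_P2169669 stood at -1.95 in the same replicate, with the others at -0.87 to -0.79. These probes share an accession. Igf1 probe A_55_P2085974 stood at -1.47 in KO replicate 2 at 16 months, with the others at 0.74 to 1.04, although that replicate was among the highest on the other 3 Igf1 probes. Cd52 stood at 1.35 in KO replicate 1 at 16 months, with the others at 3.39 to 3.77.

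The KO minus WT change differed between 16 and 4 months for Syk (-5.40) and Mertk (-2.61) by limma's interaction test. The slide, as read from the sample titles, and the deposited signal correction also differed between the ages, and their part in these values was not tested.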

How the results depend on the processing

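The counts of 4 genes and 5 probes past the test at 16 months were 0 and 0 in the fit of the 16-month arrays alone, and ranged from 1 to 5 genes and from 1 to 7 probes when a replicate was left out; both lows came without WT replicate 3 and 4. At 4 months the counts of 0 became 1 gene and 3 probes with array weights, all Igf1, and stayed at 0 whichever replicate was left out. The interaction count of 2 was 0 without a filter, 1 without a floor, 1 with the mean over a gene's probes, 4 with all 15 arrays as replicates, 0 with the replicate block, and 0 to 3 when a replicate was left out. The replicate block kept the count of 4 genes at 16 months and 0 at 4 months. Igf1 passed at 16 months under 5 of 24 alternatives (lowest adjusted p = 0.0139).

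Differences near 0 changed sign: Trem2 at 4 months (0.13 with normexp, which was chosen after seeing the data, and -0.13 to 0.097 in leave-outs), Cd52 at 4 months (-0.22 to 0.014 in leave-outs), the Grn interaction (0.19 with normexp), the Axl interaction (0.15 with the replicate block, 0.17 with array weights, -1.38 to 1.32 in leave-outs), and Timp2 at 16 months (0.0020 as a mean over probes). Leave-outs also turned Axl (-0.61 to 2.09) and Cst7 (-2.95 to 0.72) at 16 months.

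The split of all features at 16 months was 6163 higher and 4790 lower, and 4671 higher and 6057 lower with the percentile taken over probes above background on all arrays, which moved the median to 0.00; normexp moved it to 0.45. Lone samples left by a leave-out are assumed to vary like the other groups. Normexp on the mean spot signal and all planned brain alternatives were not run. Signal over background limits Syk, not well above it on 1 KO array, and 2 Igf1 probes, not well above it on 1 WT array. Causes of these changes were not tested.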
